A study of Mus musculus with 12 samples.

Results

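The kappa light chain variable segments (Igkv) were described in the lungs of 12 mice with LPS-induced acute lung injury. The members were all rows of the deposited expression table whose gene name starts with Igkv followed by a digit, which gave 160 of 55414 rows, with no minimum level. All mice had a C57BL/6J background, were instilled with LPS, a bacterial cell wall component, and were sampled on day 4. IL-10 B-KO (6 mice) carried Il10 flox/flox combined with mb1-Cre, and IL-10 B-WT (6 mice) were the controls, whose Cre and Il10 alleles are not stated in the sources used here. Mb1 is the older name of Cd79a, a signalling part of the B cell receptor, and the Cre is driven from that gene in the B lineage. Whole lung RNA was sequenced, so that fewer B lineage cells and less RNA per cell cannot be told apart in any value below. Each library is the lung of 1 mouse, and the p-values set the difference between the genotypes against the spread between the 6 mice of each. In the fit across genes, this spread is moderated with that of the other genes.

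An antibody light chain is assembled in a developing B cell by joining a variable (V) segment to a joining (J) segment, and splicing then connects this exon to the constant region Igkc. A B cell usually expresses a single rearranged kappa gene, so that in a tissue the mixture of V segments in the RNA follows which B lineage clones are present and how much RNA each of them makes. Plasma cells transcribe their light chain far more than resting B cells do. The kappa locus holds V segments in both orientations, and those that point against the J segments are joined by inversion and not by deletion.

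All 160 members were found by gene ID in GENCODE release M21 (GRCm38) on chromosome 6, where 100 are annotated as V genes and 60 as V pseudogenes, in 20 numbered families. The V exons of the 10 members with the highest median level in IL-10 B-WT lungs end in the stretch that is joined to the J segment, and these ends are shown because they hold the part of the antigen-binding loop that each segment contributes. They are the last 60 bases of the V exon, in the sense strand of the gene, from the GENCODE transcripts. Capitals mark the codons for tyrosine, tyrosine or phenylalanine, and cysteine that precede the loop, searched in this strand as TAT or TAC, then TAT, TAC, TTT or TTC, then TGT or TGC.
Igkv3-4, chr6:70672318-70672377, plus strand: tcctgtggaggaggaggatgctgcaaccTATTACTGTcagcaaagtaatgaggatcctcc
Igkv4-59, chr6:69438218-69438277, minus strand: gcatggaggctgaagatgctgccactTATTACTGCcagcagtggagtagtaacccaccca
Igkv10-96, chr6:68631963-68632022, minus strand: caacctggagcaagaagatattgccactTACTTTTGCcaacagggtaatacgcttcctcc
Igkv8-21, chr6:70314895-70314954, minus strand: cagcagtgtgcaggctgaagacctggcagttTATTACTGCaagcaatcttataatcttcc
Igkv4-61, chr6:69416895-69416954, minus strand: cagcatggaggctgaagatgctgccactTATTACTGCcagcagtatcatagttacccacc
Igkv3-2, chr6:70699008-70699067, plus strand: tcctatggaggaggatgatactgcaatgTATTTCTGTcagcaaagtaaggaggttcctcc
Igkv5-43, chr6:69823355-69823414, minus strand: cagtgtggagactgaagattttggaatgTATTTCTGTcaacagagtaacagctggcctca
Igkv12-44, chr6:69814631-69814690, minus strand: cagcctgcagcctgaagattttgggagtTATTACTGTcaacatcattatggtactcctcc
Igkv4-68, chr6:69304834-69304893, minus strand: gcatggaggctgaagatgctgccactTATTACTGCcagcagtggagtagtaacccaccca
Igkv3-5, chr6:70663836-70663895, plus strand: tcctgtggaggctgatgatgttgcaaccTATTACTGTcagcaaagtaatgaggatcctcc
The motif was present in all 10 of these ends, in 97 of the 100 V genes (97.0%) and in 34 of the 60 pseudogenes (56.7%). Igkv4-59 and Igkv4-68 had the same 60 bases at the end, and their whole V exons were 95.4% identical, with 14 differences. The leading segments of different families were between 63.6% and 73.4% identical.

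Values were deposited as TPM, a transcript unit which divides the reads of each gene by its length and scales each library to the same total. The depth of each lung is therefore unknown, and an entry at 0 is given as listed at 0. Il10, the targeted gene, was at 0 to 0.88 TPM in IL-10 B-WT and at 0 to 0.58 TPM in IL-10 B-KO lungs, so that whole lung RNA did not separate the labels by this gene. Across the 15148 genes with at least 1 TPM in at least 6 libraries, 71 fell and 4 rose in IL-10 B-KO lungs (limma on log2(TPM + 1), with a threshold of 0.05 on the adjusted p and of 1 on the absolute log2 fold change). IL-10 B-KO lungs 2 and 6 stood apart from the other IL-10 B-KO lungs in the B lineage genes, as given below, and the results that rest on them are also given without them.

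The RNA of Igkv segments was lower in every IL-10 B-KO lung than in any IL-10 B-WT lung. Summed over the 160 members, it was 696.8, 48386, 5616, 5811, 4867 and 2716 TPM across IL-10 B-WT lungs 1 to 6. The sum in IL-10 B-KO lungs 1 to 6 was 5.24, 164.1, 1.50, 2.14, 1.93 and 159.3 TPM. IL-10 B-WT lung 2 was far above the rest of its group, and IL-10 B-KO lungs 2 and 6 were far above the other IL-10 B-KO lungs but below the lowest IL-10 B-WT lung. The group medians were 5242 and 3.69 TPM, a ratio of 1421. This ratio was 2576 without IL-10 B-KO lungs 2 and 6, 2450 without IL-10 B-KO lung 1, 2 or 6, and 1000 without IL-10 B-KO lung 3, 4 or 5. It was 1319 without IL-10 B-WT lung 2, 3 or 4, and 1522 without IL-10 B-WT lung 1, 5 or 6. As a share of all TPM, Igkv took 0.0702% to 4.87% of the IL-10 B-WT libraries and 0.000151% to 0.0165% of the IL-10 B-KO libraries.

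**Figure D1:**
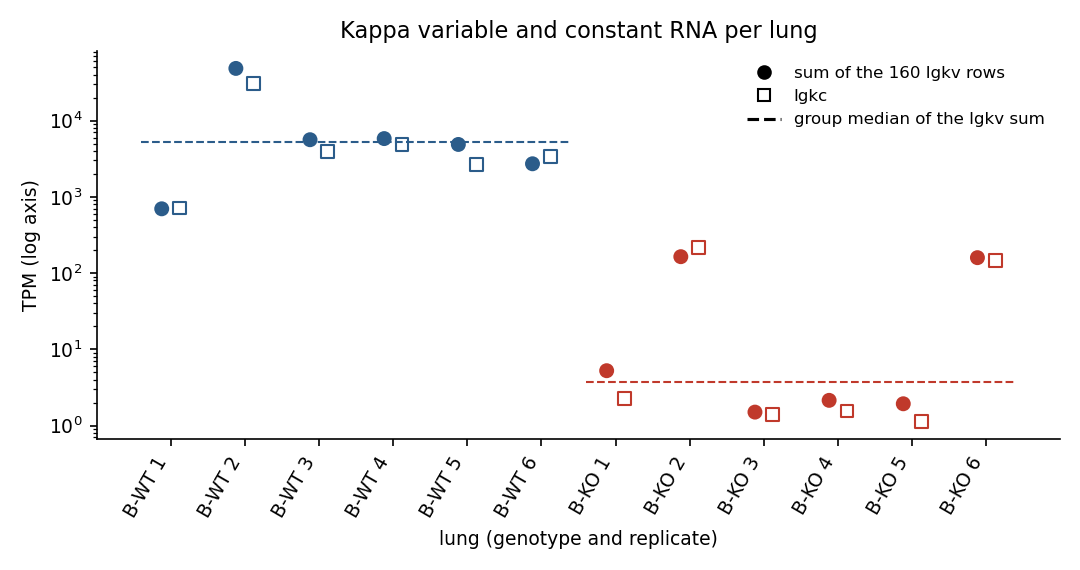
Summed TPM of the 160 Igkv rows (filled circles) and TPM of the kappa constant region Igkc (open squares) in each lung, on a log axis, with IL-10 B-WT in blue, IL-10 B-KO in red and dashed lines at the group medians of the Igkv sum. The 6 IL-10 B-WT sums lie between 696.8 and 48386 TPM, and the 6 IL-10 B-KO sums lie between 1.50 and 164.1 TPM, with lungs 2 and 6 highest.

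The constant region followed the variable segments. Igkc, to which each of these V exons is spliced, was at 713.4, 30371, 3938, 4874, 2660 and 3364 TPM across IL-10 B-WT lungs 1 to 6, while IL-10 B-KO lungs 1 to 6 had 2.24, 216.7, 1.40, 1.55, 1.12 and 146.6 TPM. It fell by 8.55 on the log2 scale (limma, adjusted p = 0.0125), without overlap of the genotypes. The summed Igkv level divided by the Igkc level was between 0.807 and 1.83 for IL-10 B-WT and between 0.757 and 2.34 for IL-10 B-KO, so that the ranges of this ratio overlapped. The 5 joining segments Igkj1 to Igkj5 were listed at 0 in all 12 libraries. Their rows are only 38 to 43 bases long, so that these zeros do not show that J segments were missing from the RNA. Kappa took 65.0% to 96.5% of the TPM of kappa and lambda variable segments together in IL-10 B-WT lungs (median 90.3%), and in IL-10 B-KO lungs 62.8% to 95.1% (median 92.6%). The lowest IL-10 B-KO share, in lung 3, rested on 1.50 TPM of kappa and 0.89 TPM of lambda variable segments. The lambda segments Iglv1 and Iglv2 fell, with log2 fold changes of -7.74 (limma, adjusted p = 0.0111) and -4.57 (limma, adjusted p = 0.0237). The call of Iglv2 was lost in 9 of 15 alternatives, among them without IL-10 B-KO lung 1, 3, 4, 5 or 6. With any IL-10 B-WT lung left out, Iglv2 had at least 1 TPM in fewer than 6 libraries and was not tested. Iglv3 did not pass the threshold (log2 fold change -2.49, limma adjusted p = 0.168). Of the lambda constant regions, Iglc2 fell (log2 fold change -4.77, limma adjusted p = 0.0478), a call lost in 13 of 21 alternatives, with an adjusted p of up to 0.16, among them without IL-10 B-WT lung 2, 3, 4, 5 or 6 and without IL-10 B-KO lung 1, 3, 4 or 5. Iglc3 did not pass the threshold (log2 fold change -3.86, limma adjusted p = 0.0850). Iglc1 was too low to be tested.

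Of the 160 members, 55 were listed at 0 in all 12 libraries and 105 were above 0 in at least 1. Among these 105, 75 were above 0 in both genotypes, 30 in IL-10 B-WT lungs and not IL-10 B-KO lungs, and 0 in IL-10 B-KO lungs alone. No share over all genes is given beside these counts, which only describe the members. In each IL-10 B-WT lung 72, 98, 85, 81, 68 and 70 members were above 0, for lungs 1 to 6, and 46 members were above 0 in all 6. Far fewer were above 0 in IL-10 B-KO lungs 1 to 6, with 9, 61, 3, 5, 4 and 60 members, and 0 members were above 0 in all 6. By annotation, 95 of the 100 V genes and 10 of the 60 pseudogenes were above 0 in some lung. Pseudogenes took between 0.0560% and 0.938% of the Igkv TPM in IL-10 B-WT lungs. The highest of them was Igkv3-11, at up to 90.6 TPM.

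The minimum of 1 TPM in 6 libraries left 44 members, all of them V genes, for the test across genes. Of these 44, 39 had at least 1 TPM in all 6 IL-10 B-WT lungs, so that they entered the test through the genotype in which they were high. Lower in IL-10 B-KO lungs were 21 of the 44, beside 0.469% of all genes tested, and 0 were higher, beside 0.0264% of all genes tested. The log2 fold changes of the 21 were between -7.52 and -3.54, and their adjusted p-values between 0.000112 and 0.0478 (limma, Benjamini-Hochberg). The 23 others had log2 fold changes between -5.33 and -1.98 and adjusted p-values between 0.0529 and 0.340 in limma. The median log2 fold change was -4.30 over the 44 members and 0.10 over all genes tested. Without the minimum, all 105 members above 0 could be tested, of which 104 had a lower and 1 a higher mean log2 level in IL-10 B-KO lungs. In that fit 3 members passed the threshold, Igkv4-68, Igkv10-96 and Igkv3-4, beside 0.0158% of all 31629 genes above 0. The 1 member with a higher mean was the pseudogene Igkv4-73, at 0.96 TPM in IL-10 B-KO lung 6 and 0.43 TPM in IL-10 B-WT lung 2, and listed at 0 elsewhere. The IL-10 B-KO lungs all lay under the lowest IL-10 B-WT lung for 31 of the 105 members, beside 0.537% of all genes above 0. With single lungs left out, the number called ranged from 8 without IL-10 B-WT lung 4 or without IL-10 B-KO lung 1, 3 or 5 to 35 without IL-10 B-WT lung 1. Without IL-10 B-WT lungs 3, 5 and 6 in turn it was 11, 10 and 13, and without IL-10 B-KO lung 4 it was 11. The minimum stayed at 6 libraries in these fits. Without an IL-10 B-WT lung, a member therefore also needed 1 TPM in some IL-10 B-KO lung, and 38 to 40 members were tested in place of 44. Without both IL-10 B-KO lungs 2 and 6, 16 members were called lower of 39 that could be tested.

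**Figure D2:**
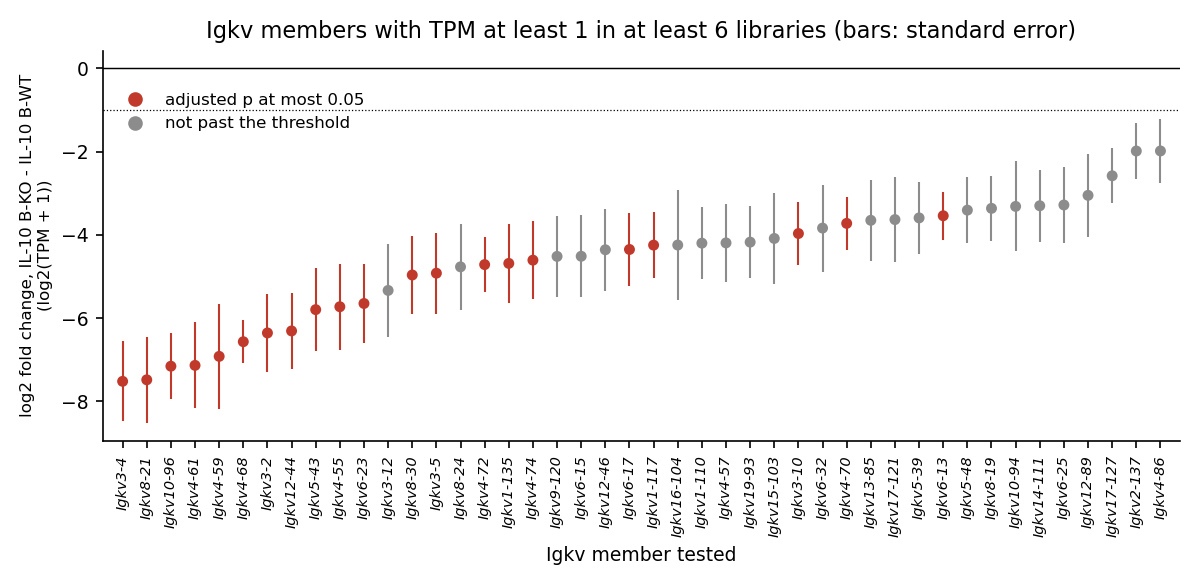
Log2 fold change of the 44 Igkv members tested (IL-10 B-KO minus IL-10 B-WT, on log2(TPM + 1)) with its standard error from limma, in order of size. All 44 points lie below the dotted line at -1, and the 21 in red had an adjusted p of at most 0.05.

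Igkv3-4 (ENSMUSG00000096715, 70671788 to 70672377, plus strand), one of the segments nearest the J cluster at 50.2 kb from Igkj1, had the highest median of all members. It was at 56.8, 1994, 422.7, 556.8, 600.0 and 799.8 TPM across IL-10 B-WT lungs 1 to 6. In IL-10 B-KO lungs 2, 5 and 6 it was at 19.2, 0.15 and 13.9 TPM, and it was listed at 0 in lungs 1, 3 and 4. All IL-10 B-KO lungs were below all IL-10 B-WT lungs. Its means were 738.3 ± 662.7 and 5.55 ± 8.70 TPM (SD, n = 6 each), and it fell by 7.52 on the log2 scale (standard error, SE, 0.96, adjusted p = 0.00678 by limma). The exact permutation test gave p = 0.00216 (two-sided, n = 6 each), the smallest p that 6 lungs against 6 allow.

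Igkv4-59 (ENSMUSG00000094006, 69438218 to 69438757, minus strand) was the leading segment of IL-10 B-WT lungs 3 and 4. Its TPM across IL-10 B-WT lungs 1 to 6 were 12.4, 4287, 705.7, 1182, 137.7 and 31.9. IL-10 B-KO lungs 2 and 6 had 6.42 and 8.52 TPM, and the other IL-10 B-KO lungs were listed at 0. The groups did not overlap, although IL-10 B-WT lung 1 was close to IL-10 B-KO lung 6. Its log2 fold change was -6.92 (SE 1.26, adjusted p = 0.0266 by limma), and this call was lost in 11 of 21 alternative analyses, where the adjusted p reached 0.112.

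Igkv10-96 (ENSMUSG00000094420, 68631963 to 68632442, minus strand) lies in the distal part of the locus, 2090 kb from Igkj1. It was at 136.0, 2673, 394.0, 310.0, 139.3 and 195.0 TPM across IL-10 B-WT lungs 1 to 6. IL-10 B-KO lungs 2, 4 and 6 had 9.33, 0.87 and 6.70 TPM, and the rest were listed at 0. IL-10 B-WT lung 2 stood above the others, and no IL-10 B-KO lung reached the IL-10 B-WT range. Its log2 fold change of -7.15 (SE 0.80, adjusted p = 0.00180 by limma) passed the threshold in all 21 alternatives run.

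Igkv8-21 (ENSMUSG00000076586, 70314895 to 70315472, minus strand) reached the highest value of any member, 8340 TPM in IL-10 B-WT lung 2. The other IL-10 B-WT lungs, in order of their number, had 18.1, 352.9, 190.2, 205.2 and 253.4 TPM. IL-10 B-KO lungs 1, 2, 4 and 6 had 0.70, 0.75, 0.37 and 3.27 TPM, and lungs 3 and 5 were listed at 0. Here IL-10 B-KO lung 2 was level with lung 1, unlike in Igkv3-4. The log2 fold change was -7.48 (SE 1.03, adjusted p = 0.0111 by limma).

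Igkv4-61 (ENSMUSG00000076552, 69416893 to 69417455, minus strand) was at 20.7, 4944, 484.0, 176.1, 226.0 and 41.3 TPM across IL-10 B-WT lungs 1 to 6. IL-10 B-KO lungs 2 and 6 had 2.80 and 2.04 TPM and the others were listed at 0. It fell by 7.13 on the log2 scale (SE 1.03, adjusted p = 0.0116 by limma), and its genotypes did not overlap.

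Igkv4-68 (ENSMUSG00000076549, 69304834 to 69305405, minus strand), which shares its last 60 bases with Igkv4-59, had the firmest difference of the named members. Its TPM were 140.1, 473.2, 71.5, 50.3, 186.1 and 93.6 in IL-10 B-WT lungs 1 to 6. Among IL-10 B-KO lungs, 2 and 6 had 0.35 and 3.53 TPM and the rest were listed at 0. The log2 fold change was -6.56, with the smallest standard error (0.52) and the smallest adjusted p (0.000112, limma) of the members named here. IL-10 B-WT lung 1, the lowest of its group in summed Igkv, was above lungs 3, 4 and 6 here.

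The remaining members of high median were Igkv3-2, Igkv5-43, Igkv12-44 and Igkv3-5. Igkv3-2 (ENSMUSG00000095351, 70698449 to 70699067, plus strand) was at 15.5 to 1700 TPM in IL-10 B-WT lungs (median 201.0 TPM) and at no more than 12.6 TPM in IL-10 B-KO lungs, a log2 fold change of -6.35 (limma, adjusted p = 0.0125). Igkv12-44 (ENSMUSG00000096422, 69814631 to 69815154, minus strand) was at 5.77 to 877.2 TPM (median 134.6 TPM) and at no more than 2.55 TPM, a log2 fold change of -6.31 (limma, adjusted p = 0.0116). Neither overlapped between the genotypes. Igkv3-5 (ENSMUSG00000095335, 70663275 to 70663895, plus strand) did overlap, since IL-10 B-WT lung 1 had 1.70 TPM and IL-10 B-KO lungs 2 and 6 had 3.76 and 2.86 TPM. Its log2 fold change was -4.92 (limma, adjusted p = 0.0434), its exact permutation p was 0.00649 (two-sided, n = 6 each), and the call was lost in 14 of 21 alternatives.

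Igkv5-43 (ENSMUSG00000094433, 69823355 to 69823943, minus strand) has the closest relative of the named members. Its V exon of 298 bases differs from that of Igkv5-45 at 3 positions (99.0% identity), and bases 45 to 125 of both exons are shown, with the 3 differing bases in capitals, because within the V exon this stretch alone tells reads of the pair apart.
Igkv5-43, chr6:69823528-69823608, minus strand: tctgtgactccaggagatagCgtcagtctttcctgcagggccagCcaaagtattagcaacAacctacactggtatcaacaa
Igkv5-45, chr6:69775923-69776003, minus strand: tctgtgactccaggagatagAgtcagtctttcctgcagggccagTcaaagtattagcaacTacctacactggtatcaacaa
Igkv5-43 was at 15.9, 680.0, 17.2, 879.7, 227.7 and 91.8 TPM across IL-10 B-WT lungs 1 to 6, while Igkv5-45 was at 1.03, 7.82, 4.66, 2.18, 3.09 and 0 TPM in the same lungs. The deposited values thus gave nearly all the RNA of the pair to Igkv5-43, and how the reads in common were divided was not tested. Igkv5-43 in IL-10 B-KO lungs 1 to 6 was at 0.71, 5.38, 0.45, 0, 0 and 7.50 TPM, and its log2 fold change was -5.79 (limma, adjusted p = 0.0223). This call was lost in 10 of 21 alternatives, with an adjusted p of up to 0.0999, among them without IL-10 B-WT lung 4, 5 or 6 and without IL-10 B-KO lung 1, 3, 4 or 5. Over all 160 members, the nearest other V exon was 92.8% identical at the median, 47 members had a relative of at least 95% identity, and 0 had an identical one. Igkv16-104 was the most isolated of the 44 tested, at 75.8%.

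**Figure D3:**
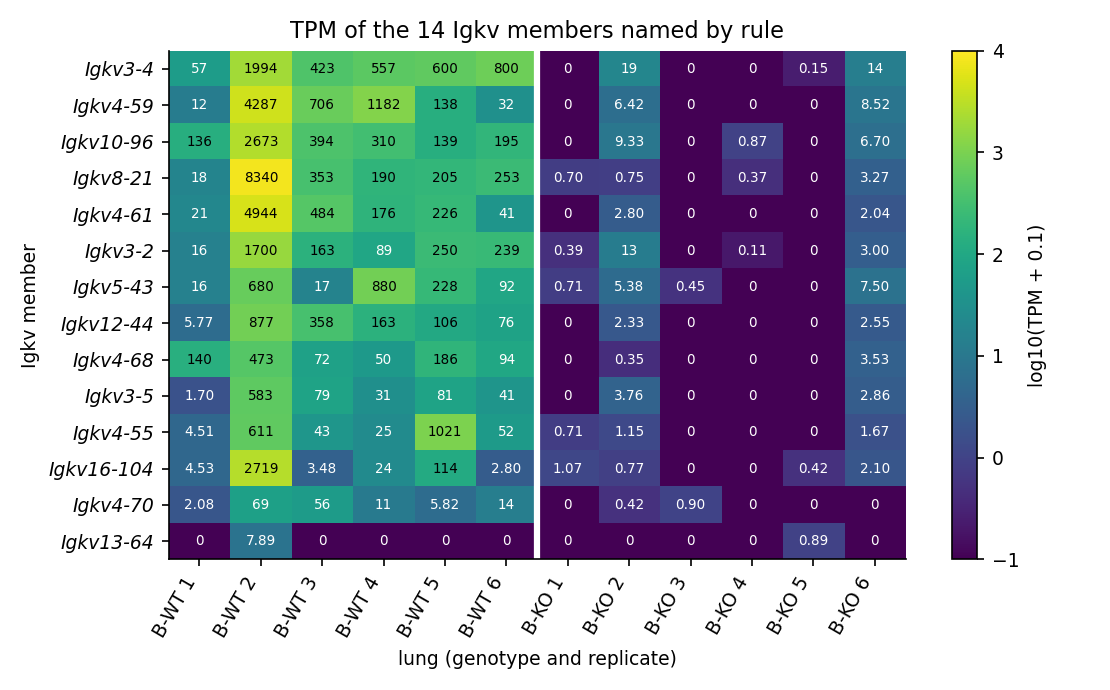
TPM of the 14 Igkv members chosen by rule (rows, by median in IL-10 B-WT lungs) in each of the 12 lungs (columns), with colour on a log10(TPM + 0.1) scale and the TPM written in each cell. Igkv3-4 is at 56.8 TPM or more in all IL-10 B-WT lungs, and the IL-10 B-KO columns are filled mainly in lungs 2 and 6.

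The segment that led differed between lungs. In IL-10 B-WT lungs 1 to 6 the leading segments were Igkv4-68 (20.1% of the Igkv TPM), Igkv8-21 (17.2%), Igkv4-59 (12.6%), Igkv4-59 (20.3%), Igkv4-55 (20.98%) and Igkv3-4 (29.5%). The 10 highest segments of the 6 lungs drew on 25 members in all, of which 2, Igkv3-4 and Igkv8-21, were among the 10 highest in every IL-10 B-WT lung and 11 were in a single lung. Igkv4-55 (ENSMUSG00000096833, 69607275 to 69607828, minus strand) took 20.98% of IL-10 B-WT lung 5 and no more than 1.93% of any other IL-10 B-WT lung. It was at 4.51 to 1021 TPM over the IL-10 B-WT lungs and at no more than 1.67 TPM over the IL-10 B-KO lungs, and fell by 5.72 on the log2 scale (SE 1.04, adjusted p = 0.0253 by limma), a call lost in 14 of 21 alternatives. Igkv4-50 took 11.0% of IL-10 B-WT lung 4 and at most 0.610% elsewhere, a difference of 18.1-fold to the next lung. Igkv15-103 took 9.65% of IL-10 B-WT lung 5 and at most 1.62% of the others. These 2 were named after their values were seen, for their uneven use, as were Igkv3-11, Igkv4-73 and Igkv5-45 above. In all, 18 members reached 5% of the Igkv TPM in some IL-10 B-WT lung.

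Igkv3-4 led in IL-10 B-KO lungs 2 and 6, with 11.7% and 8.75% of the Igkv TPM. The 4 other IL-10 B-KO lungs held so little Igkv RNA that a single row of about 1 TPM led each of them. These rows were Igkv16-104 in lung 1 (1.07 TPM), Igkv4-70 in lung 3 (0.90 TPM), Igkv10-96 in lung 4 (0.87 TPM) and the pseudogene Igkv13-64 in lung 5 (0.89 TPM). Igkv16-104 (ENSMUSG00000076522, 68425575 to 68426072, plus strand) had 2.80 to 2719 TPM over the IL-10 B-WT lungs and did not pass the threshold (log2 fold change -4.24, SE 1.33, adjusted p = 0.251 by limma), although no IL-10 B-KO lung, at up to 2.10 TPM, reached the IL-10 B-WT range. Igkv4-70 (ENSMUSG00000076547, 69267888 to 69268443, minus strand) had 2.08 to 68.6 TPM over the IL-10 B-WT lungs and fell by 3.72 on the log2 scale (limma, adjusted p = 0.0223). This call was lost in 6 of 15 alternatives, among them without IL-10 B-KO lung 1, 3, 5 or 6. With any IL-10 B-WT lung left out, Igkv4-70 had at least 1 TPM in fewer than 6 libraries and was not tested. Igkv13-64 (ENSMUSG00000105747, 69362725 to 69363187, plus strand) was otherwise above 0 only in IL-10 B-WT lung 2, at 7.89 TPM.

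The concentration of the RNA on few segments was measured by the effective number of segments, the exponential of the Shannon entropy of the shares, which equals the number of equally used segments that would give the same entropy. It was 20.8, 27.2, 28.7, 18.4, 19.4 and 17.6 in IL-10 B-WT lungs 1 to 6. In IL-10 B-KO lungs 2 and 6 it was 36.3 and 42.4, above each IL-10 B-WT lung, and in lungs 1, 3, 4 and 5 it was 7.98, 2.45, 4.22 and 3.43. Thus IL-10 B-KO lungs 2 and 6 had the highest effective numbers of the 12, at summed levels below those of any IL-10 B-WT lung. This measure rises both with the number of segments above 0 and with how evenly they are used. That number was 61 and 60 in these lungs, 3 to 9 in the other IL-10 B-KO lungs and 68 to 98 in IL-10 B-WT lungs. The first 50% of the Igkv TPM was reached with 4 to 7 segments in IL-10 B-WT lungs, with 10 in IL-10 B-KO lung 2 and with 12 in IL-10 B-KO lung 6. The 10 highest segments took 63.7% to 77.7% in IL-10 B-WT lungs, 51.5% in IL-10 B-KO lung 2 and 45.8% in lung 6. No test was made of these values, since they are scores over members chosen with earlier results known.

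**Figure D4:**
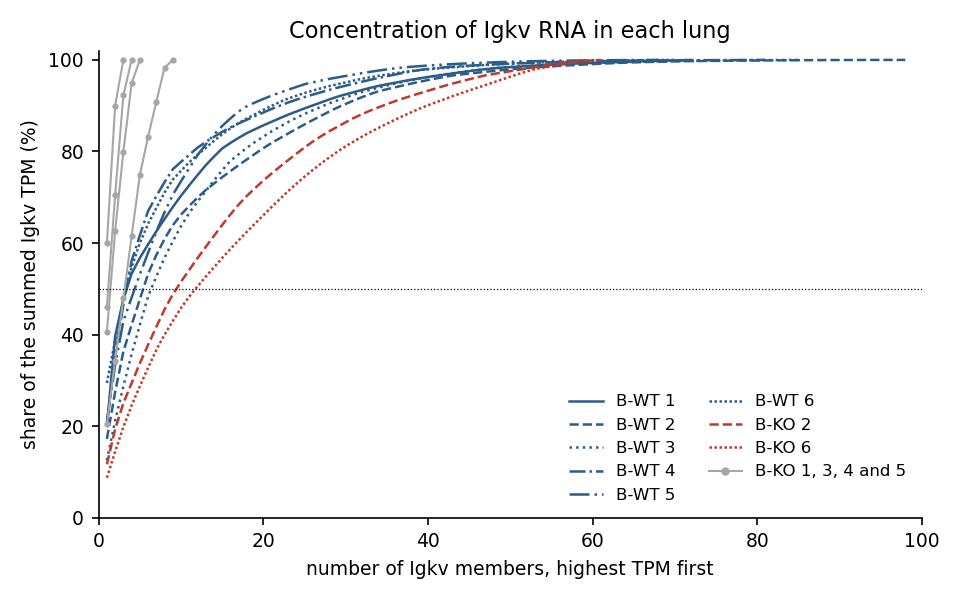
Cumulative share of the summed Igkv TPM (%) against the number of members taken, highest first, with 1 line per lung, IL-10 B-WT in blue, IL-10 B-KO 2 and 6 in red and the 4 other IL-10 B-KO lungs in grey. The red lines rise more slowly than the blue ones and cross 50% at 10 and 12 members, where the IL-10 B-WT lungs cross it at 4 to 7.

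The overlap in segment use between lungs was given as the sum, over members, of the lower of the 2 shares. Pairs of IL-10 B-WT lungs shared between 39.4% and 61.2% of their use (median 44.2%, 15 pairs). IL-10 B-KO lung 2 shared 44.5% to 50.1% with the 6 IL-10 B-WT lungs, and IL-10 B-KO lung 6 shared 44.3% to 53.9%, both within the range of the IL-10 B-WT pairs. The same IL-10 B-KO lungs shared 65.0% with each other, which was above all 15 IL-10 B-WT pairs. The pairs share lungs and are not independent, and the values are a description.

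By family, Igkv4 and Igkv3 had the highest median shares of the Igkv RNA in IL-10 B-WT lungs, while Igkv10 took more than Igkv3 in lung 1, Igkv8 in lung 2 and Igkv5 in lung 4. The 33 members of Igkv4 took 12.6% to 45.6% of the Igkv TPM (median 31.4%), the 13 of Igkv3 took 12.8% to 41.7% (median 17.7%), the 12 of Igkv8 took 4.69% to 21.5% (median 8.71%) and the 3 of Igkv10 took 2.90% to 19.8% (median 6.51%). The 21 members called lower belonged to 8 of the 20 families, 7 of them to Igkv4, 4 to Igkv3, 3 to Igkv6, 2 each to Igkv8 and Igkv1, and 1 each to Igkv10, Igkv12 and Igkv5. Summed within families, the highest IL-10 B-KO lung was lower than the lowest IL-10 B-WT lung in 14 of the 20. This count has no like share over sums of other genes beside it and is a description. Igkv20, with a single member, was listed at 0 throughout.

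Segments in all parts of the locus contributed. Ordered by distance, the 53 members nearest Igkj1 (18.4 to 1041 kb) took 32.1% to 68.3% of the Igkv TPM in IL-10 B-WT lungs, with a median of 51.8%. The next 53 members (1073 to 1967 kb) took 13.1% to 41.8% (median 32.3%) and the 54 farthest (1986 to 3166 kb) took 12.3% to 34.3% (median 18.2%). These groups hold 42, 28 and 30 V genes. In IL-10 B-KO lungs 2 and 6 the nearest members took 53.9% and 50.6%, within the IL-10 B-WT range, and the farthest took 31.3% and 29.8%. Members in the orientation of the J segments took 20.2% to 50.3% of the Igkv TPM in IL-10 B-WT lungs (median 30.5%), and 48.5% and 45.7% in IL-10 B-KO lungs 2 and 6. Of the 44 members tested, 17 had that orientation, and 7 of these were among the 21 called lower.

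**Figure D5:**
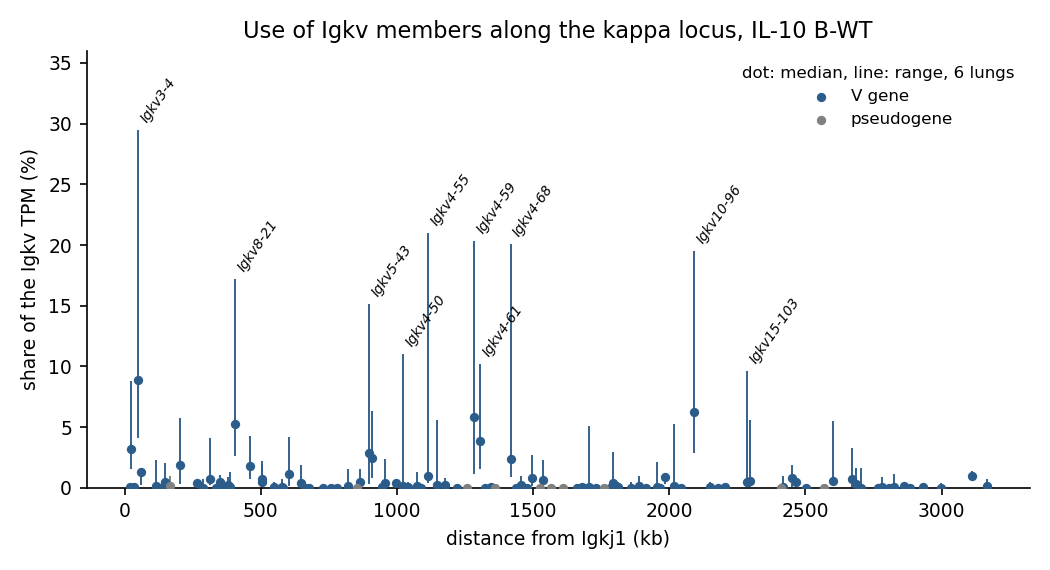
Share of the Igkv TPM (%) taken by each member above 0 in IL-10 B-WT lungs, against its distance from Igkj1 in kb, with the median as a dot and the range over the 6 lungs as a line, V genes in blue and pseudogenes in grey. Tall lines with low dots, such as Igkv4-55 (20.98% in 1 lung, median 1.02%), are members used heavily in a single lung.

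Few B cell and plasma cell genes were called beside the Igkv segments. Cd79a was at 15.3 to 258.6 TPM in IL-10 B-WT lungs, at 4.35 and 5.73 TPM for IL-10 B-KO lungs 2 and 6, at 0.05 TPM in lung 4 and at 0 in lungs 1, 3 and 5. Its log2 fold change was -4.16 (limma, adjusted p = 0.0222), and the call was lost in 6 of 21 alternatives, where the adjusted p reached 0.0999, namely with no minimum level and without IL-10 B-WT lung 4 or 5 or IL-10 B-KO lung 1, 3 or 5. Since mb1-Cre lies in Cd79a and the number of Cre copies per mouse is not stated in the sources used here, an effect of the Cre on Cd79a and on B lineage cells, the loss of Il10 and the content of B lineage cells cannot be told apart in this gene or in the Igkv values. Of the 15 genes in the list of B cell markers, 1, Cd79a, was called lower, the median log2 fold change was -1.60, and the summed TPM was 131.5 to 1499 for IL-10 B-WT and 95.9 to 198.3 for IL-10 B-KO. Of the 12 plasma cell genes, 10 were tested and 2 fell, Jchain, which links secreted IgM and IgA (log2 fold change -7.60, limma adjusted p = 0.000662), and Mzb1, a chaperone of antibody-secreting cells (log2 fold change -3.57, limma adjusted p = 0.0195). The median log2 fold change of these 10 was -0.75, and their list summed to 574.5 to 3056 TPM for IL-10 B-WT and 342.8 to 538.2 TPM for IL-10 B-KO, in the latter mostly from Xbp1, Txndc5 and Sdc1, which other lung cells also express.

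The ratio of Igkv RNA to single B lineage genes also differed between lungs. The summed Igkv TPM was 45.5 to 254.3 times that of Cd79a in IL-10 B-WT lungs, and 37.7 and 27.8 times in IL-10 B-KO lungs 2 and 6. Against Jchain it was 10.4 to 22.3 times in IL-10 B-WT lungs, and 72.6 and 53.8 times in IL-10 B-KO lungs 2 and 6. These lungs therefore had less Igkv RNA per Cd79a and more per Jchain than any IL-10 B-WT lung. Jchain was at 2.26 and 2.96 TPM in them and at 32.0 to 2170 TPM in IL-10 B-WT lungs.

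The other lists of genes showed where no such change was called. Of 6 genes of light chain rearrangement and early B cells, 2 could be tested and 0 were called, and the recombinase genes Rag1 and Rag2 were at no more than 0.03 and 0.04 TPM in any IL-10 B-WT lung and listed at 0 in IL-10 B-KO lungs. Of 13 transcription factors that act on kappa genes, all were tested, 0 were called and the median log2 fold change was -0.29, with Pax5 at -2.87 (limma, adjusted p = 0.0731) and Pou2af1, the coactivator of octamer-binding factors, at -2.74 (limma, adjusted p = 0.122). Of 4 genes of class switching and germinal centres, 2 were tested and 0 called. In the lists of other lung cells, 0 of 10 T cell, 6 neutrophil, 6 alveolar epithelium, 5 endothelium and 5 macrophage genes were called, beside 0.469% lower and 0.0264% higher over all genes. The median log2 fold changes of these lists were 0.02, 1.72, 0.60, -0.38 and 1.48, and the summed neutrophil genes were at 284.0 to 2511 TPM in IL-10 B-WT and 1046 to 7524 TPM in IL-10 B-KO lungs. Of the 22 light and heavy chain companions, 13 were tested and 8 fell, namely Igkc, Iglc2, Iglv1, Iglv2, Ighg2b, Ighg2c, Igha and Jchain.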

How the data were processed

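Lung RNA of 12 mice (6 IL-10 B-WT, 6 IL-10 B-KO) was studied. The expression values that the authors deposited are TPM per gene from RSEM, with 1 column for each library and 2 decimals. The submitters' processing notes also name fastp, HISAT and GRCm38.p5, and the versions are not given in the sources used here. TPM keep no depth, which leaves the counting error of each value unknown, and count models were not used. The columns summed to between 991646 and 994430 TPM, and 0 pairs of libraries were identical. Expression was compared with limma 3.58.1 (R 4.3.3, with a mean-variance trend in eBayes) from log2(TPM + 1) over genes with at least 1 TPM in at least 6 libraries, with Benjamini-Hochberg adjustment over all of them. This scale understates the change of low genes. The fit was first tested on simulated data with normal noise. Changes were planted there only in genes with a spread below 1 on the log2 scale. Recovery of changes in genes of larger spread was therefore not tested. Single genes were also compared by exact permutation. The alternatives were a pseudocount of 0.1, no minimum, a mean of at least 5 TPM, 3 other scalings, array quality weights, the replicate block, other call thresholds and each library left out.

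The members, the marker lists and the rule for naming genes were chosen with earlier results of these data known. Named were the 10 members of highest median TPM in IL-10 B-WT lungs, the highest member of each library, the 5 highest means in IL-10 B-KO lungs, the 5 largest fold changes among members called, any member called higher, and companion genes fixed by name. The sequences and coordinates came from GENCODE release M21 on GRCm38, with identities calculated by edlib 1.3.9.post1. Reads of near-identical V segments can be shared, so that the split among relatives is uncertain. Sums, shares and permutations were computed in Python 3.11.15 with pandas 2.3.3, NumPy 2.4.6 and SciPy 1.17.1, and plots were drawn with matplotlib 3.10.9.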

Additional observations from a re-analysis of the deposited data

Results flagged for a closer look

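In groups of 6 lungs, the highest or lowest value was compared with its nearest neighbour by Dixon's ratio. Single genes were compared as log2(TPM + 1), the summed Igkv TPM and ratios as log2 values, and shares and effective numbers as printed, and the TPM scale itself was not examined. Of 62 groups examined 9 passed the 95% limit. This limit is set for normal values, of which about 1 in 20 groups would pass. Some groups hold lungs tied at 0, so that 9 of 62 cannot be compared with that rate. For Igkv13-64, all lungs but 1 of each genotype were listed at 0, which alone fixes the ratio at 1. Among Igkv members, IL-10 B-WT lung 2 stood above its group for Igkv10-96 (2673 TPM) and for the pseudogene Igkv13-64 (7.89 TPM, with the others listed at 0), and Cd79a was also far higher in that lung (258.6 TPM). Of the IL-10 B-KO lungs, number 6 stood apart for Igkv4-68 (3.53 TPM), number 5 for Igkv13-64 (0.89 TPM, with the others listed at 0) and number 2 for the lambda constant region Iglc1 (6.43 TPM). The share of kappa among light chain variable RNA was lowest in IL-10 B-WT lung 3 (65.0%) and in IL-10 B-KO lung 3 (62.8%), each far from its group. The share in IL-10 B-KO lung 3 rested on only 1.50 TPM of kappa and 0.89 TPM of lambda variable segments. In IL-10 B-WT lung 3 these were at 5616 and 3026 TPM. Within the IL-10 B-WT group, the summed Igkv TPM relative to the B cell gene Ms4a1 was lowest, at 150.5-fold, in lung 1.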

How the results depend on the processing

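The number of Igkv members called lower in IL-10 B-KO lungs, 21, was 3 without the minimum level, 13 with quantile normalization, 13 with median centring, 39 with array quality weights and 44 at an unadjusted p. Leaving out 1 lung at a time, it lay between 8 and 35, with 38 to 44 members tested. In all of these analyses 0 members were called higher. Of 267 values of the 13 tested members named, 208 kept their direction and their side of the threshold, 59 kept the direction and lost the call, and 0 reversed. The ratio of the group medians lay between 1000 and 2450 with each lung left out, and was 2576 without IL-10 B-KO lungs 2 and 6, an analysis chosen after seeing the data. Summed by family, the effective number in IL-10 B-WT lungs was 7.29 in place of 20.1 and the leading share 35.8% in place of 20.2%, since fewer units were counted. The replicate block gave 20 members called lower. The labels give no pairing, and lungs of the same number did not deviate together (correlations between -0.292 and 0.0458, and 0 of 6 lungs matched its own number best). The unknown depth limits the values of IL-10 B-KO lungs 1, 3, 4 and 5 most, where shares rest on rows near 1 TPM.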
